A study of Homo sapiens with 6 samples.

Results

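Genes for voltage-gated and related ion channels were measured by RNA-seq in Huh7, a cell line from a human liver cancer. Cells received lentiviral particles with an expression vector for LHX2, a LIM-homeodomain transcription factor (LHX2, 3 libraries), or with a control vector (CTRL, 3 libraries, also labelled parental), and both groups were kept for 48 h. Both groups were therefore transduced, and the labels do not say whether the cells were selected, pooled or cloned. The members were the 131 genes, of 28265 in the table of read counts, whose symbols mark potassium channel subunits (KCN families), sodium channel subunits (SCN) or voltage-gated calcium channel subunits (CACN). They comprised 91 potassium, 14 sodium and 26 calcium channel genes. The name voltage-gated does not hold, or does not suffice, for all of them. Inward rectifiers (KCNJ) are encoded by 16 and tandem-pore leak channels (KCNK) by 15. Another 7 encode channels opened by intracellular calcium or sodium or their close relatives. Of the 131, 47 had 10 or more counts in at least 3 libraries, 50 had some reads but fewer than that, and 34 had no read in any library.

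Voltage-gated channels open a pore for potassium, sodium or calcium ions when the membrane potential changes, and in nerve and muscle they generate and shape action potentials. Each channel is built on pore-forming alpha subunits, and accessory subunits set its transport to the membrane and its gating. Hepatocytes do not fire action potentials, and potassium channels and calcium entry are known there mainly for the membrane potential, cell volume and secretion.

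Libraries held 30029313 to 35194438 counts in the LHX2 group and 32625405 to 39653681 in the CTRL group, and no pair of replicates was identical or matched within counting noise. LHX2 itself had 2427 to 3126 counts in the libraries labelled LHX2 and 1 to 2 in the libraries labelled CTRL. All 14 hepatic markers were present, with a summed level of 46490 to 50940 CPM (counts for every 1e6 counts of a TMM-scaled library) in LHX2 libraries and 50210 to 51640 CPM in CTRL libraries. AFP and ALB held most of this sum, and neither passed. Of the 14 hepatic markers, 6 fell, 2 rose and 6 did not pass (edgeR). Of all 14533 genes tested, 32.5% were called in either direction, a share to set beside these and the marker counts below. Over a mean of 5 CPM, where all 14 hepatic markers lay, 38.9% of 10383 genes were called. AHSG fell most, 2.25-fold lower (edgeR adjusted p = 3.8e-11). APOA2 was 1.28-fold and SERPINA1 1.23-fold lower, and HNF4A, TTR and APOH also fell. FOXA2 rose 1.26-fold and TF 1.16-fold. Of 12 neuronal or neuroendocrine markers 5 had 10 or more counts in at least 3 libraries, while NEFL, RBFOX3 and STMN2 had no read. Their summed level was 70.6 to 72.8 CPM in LHX2 libraries, against 50.4 to 54.0 CPM in CTRL libraries, but the genes did not move together. TUBB3 rose 1.25-fold, SYT1 2.04-fold and CHGB 2.06-fold (edgeR). SNAP25 fell, 1.535-fold lower (edgeR adjusted p = 3.5e-03), and SYP did not pass. Of 12 muscle markers 1, MYH3, reached the count of 10 in at least 3 libraries, and ACTC1, DES, MYH7, MYOD1 and MYOG had no read. Of 7 fibroblast markers 2 reached it, and both rose (edgeR): COL1A2 3.98-fold and LUM 1.40-fold, with the 7 summed to 46.6 to 52.7 CPM in LHX2 and 17.7 to 19.8 CPM in CTRL libraries. COL1A1, COL3A1, PDGFRB, DCN and ACTA2 had at most 10 counts in any library and were not tested. COL3A1, with 2 to 4 counts in LHX2 and 7 to 9 in CTRL libraries, lay lower in all LHX2 libraries. PDGFRB did too, with 1 to 2 and 6 to 10 counts, while the groups overlapped for COL1A1, DCN and ACTA2. Of 5 leukocyte markers CD68 rose 1.98-fold and LYZ 1.35-fold, with sums of 610.4 to 677 CPM in LHX2 and 469 to 499 CPM in CTRL libraries, while CD3E had no read. Of 5 endothelial markers PECAM1 fell, 1.33-fold lower, with sums of 2.78 to 3.22 CPM in LHX2 and 3.75 to 4.28 CPM in CTRL libraries, while CDH5, KDR and TEK had no read. The part of these marker differences in the channel results was not tested. The libraries are bulk samples, so fewer cells of a type and less RNA per cell cannot be told apart. The labels do not say that replicates were separate cultures, and p-values then measure only the spread between these libraries.

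Channel transcripts were a small part of the RNA, and a single gene, SCN9A, held most of the difference between the groups. The 131 members together summed to 271, 304 and 291 CPM of the unscaled library totals in LHX2 replicates 1 to 3, against 200.1, 193 and 201 in CTRL replicates 1 to 3. SCN9A made up 53.0%, 56.9% and 56.0% of these member counts in LHX2 libraries and 37.2%, 35.2% and 36.3% in CTRL libraries, with exact binomial 95% intervals that span 51.9% to 57.9% and 34.1% to 38.4% over the libraries of each group and cover counting error only. Without SCN9A the other members summed to 127, 131 and 128 CPM in LHX2 libraries and to 126, 125 and 128 in CTRL libraries, so that the groups overlapped.

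Of 43 members with enough counts for the test, 6 rose with LHX2 (SCN9A, SCN8A, KCNJ3, KCNJ13, CACNA1D and CACNA1G), 3 fell (SCN7A, KCNE3 and KCNK9) and 34 did not pass (edgeR quasi-likelihood test, Benjamini-Hochberg adjusted p below 0.05 over 14533 genes). The called share was 20.9% of the tested members, against 32.5% of all genes tested, with 16.6% of all genes higher and 15.8% lower. The groups did not overlap for 13 of the 43 members, 30.2%, against 44.9% of all genes. The median log2 fold change was 0.11 over the tested members and 0.01 over all genes. Over all genes tested, log2 fold changes rose weakly with transcript length (Spearman correlation 0.14). The tested members were longer, with a median of 5137 against 3541.5 bases. The part of length in these medians was not tested. Most members were low, which limits these calls: 26 of the 43 had a mean under 1 CPM, where 3 members were called and 9.73% of 1952 tested genes were. Over a mean of 5 CPM, 5 of 8 members were called, beside 38.9% of 10383 genes. The tested members are those that passed a filter on counts and do not stand for all 131. CACNA1G passed it only through the LHX2 libraries, which alone held 10 or more counts in all 3. KCNJ13 had 10 or more counts in 3 LHX2 libraries and 1 CTRL library, and KCNK9 in 2 LHX2 and 3 CTRL libraries.

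**Figure D1:**
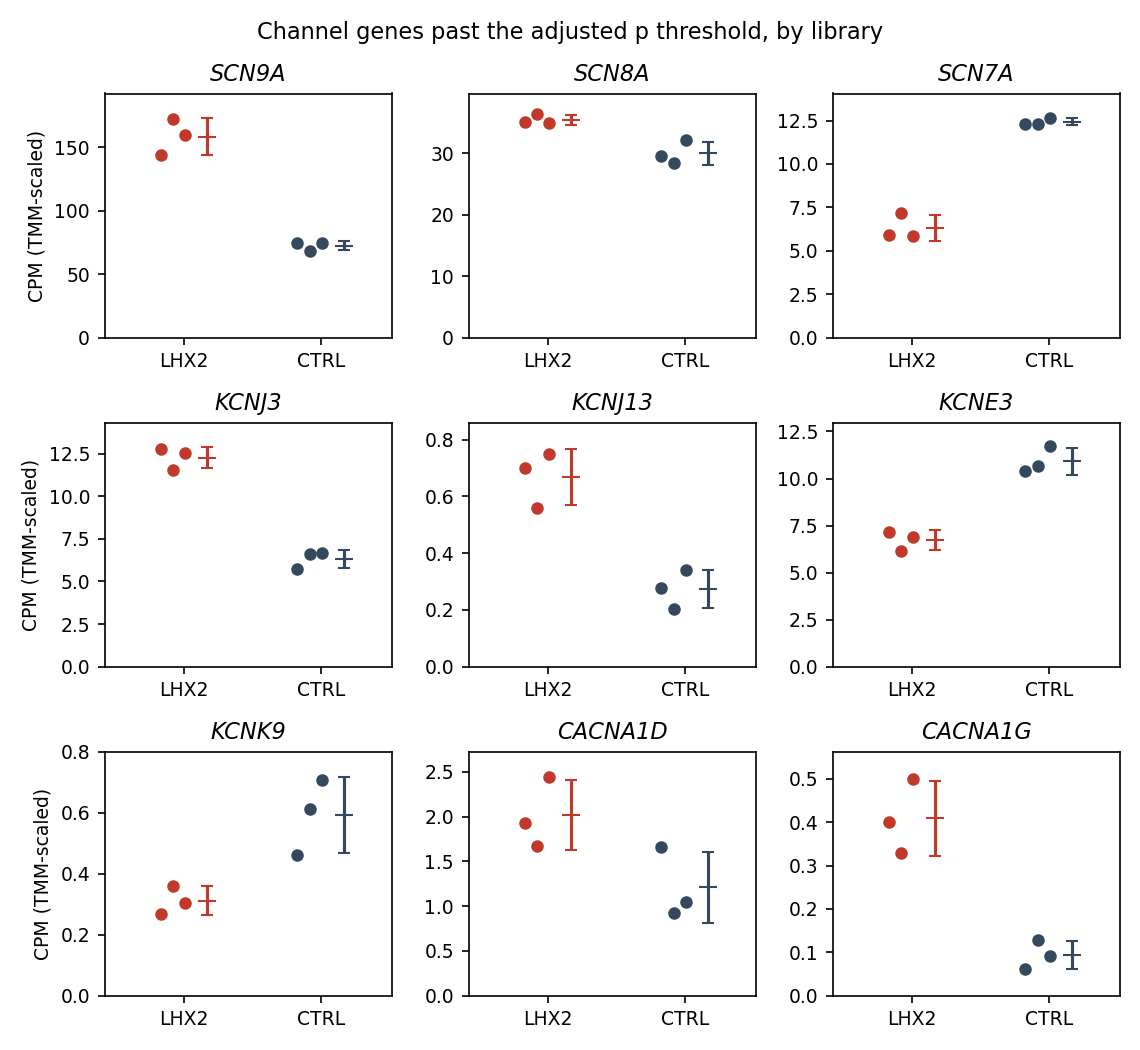
Level in each library of the 9 channel genes with an adjusted p under 0.05, in CPM on an axis that starts at 0, with LHX2 libraries in red and CTRL libraries in dark blue; points are libraries 1 to 3 and the bars give mean ± SD (n = 3). The LHX2 points lie above all CTRL points for 6 genes and below them for SCN7A, KCNE3 and KCNK9, and KCNJ13, KCNK9 and CACNA1G lie under 1 CPM.

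The sodium channel alpha subunit genes, which encode the pores that carry the rapid upstroke of action potentials in excitable cells, held both a rise and a fall. SCN9A, known from sensory neurons and human pain disorders (chromosome 2, 166195185 to 166375987 of GRCh38, minus strand), had 143, 172 and 159 CPM in LHX2 replicates 1 to 3, against 74.6, 68.5 and 74.1 CPM in CTRL replicates 1 to 3. Every LHX2 library thus lay above every CTRL library, with means of 158 ± 14.4 CPM in LHX2 and 72.4 ± 3.37 CPM in CTRL libraries (SD, n = 3 each). The fold was 2.19, a log2 fold change of 1.13 ± 0.059 (SE; edgeR adjusted p = 2.4e-09). A long noncoding gene in the same region, SCN1A-AS1, overlaps the span of SCN9A. With the counting strand not given, reads from any overlapping exons cannot be told apart, and overlap of exons was not checked. SCN1A-AS1 had 13 to 19 counts in LHX2 and 13 to 20 in CTRL libraries, where SCN9A had 4306 to 5741 and 2406 to 2686.

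SCN7A encodes an atypical sodium channel subunit known for sensing the extracellular sodium level (chromosome 2, 166403573 to 166494249, minus strand). It had 5.93, 7.16 and 5.86 CPM in LHX2 libraries and 12.3, 12.3 and 12.7 CPM in CTRL libraries. All LHX2 values lay under all CTRL values, and the gene was 1.97-fold lower with LHX2, a log2 fold change of -0.98 ± 0.094 (SE; edgeR adjusted p = 1.9e-06). SCN9A and SCN7A are neighbours on the same strand, 27585 bases apart, and they moved in opposite directions: the ratio of SCN9A to SCN7A counts was 24.2, 24.1 and 27.2 in LHX2 libraries, against 6.07, 5.56 and 5.85 in CTRL libraries. The other genes of this cluster were low. SCN2A had 26 to 34 counts in LHX2 and 32 to 45 in CTRL libraries and a log2 fold change of -0.23 ± 0.24 (SE), SCN1A had 3 to 10 and 6 to 14 counts, and SCN3A had 2 to 6 and 4 to 5 counts and was not tested.

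**Figure D2:**
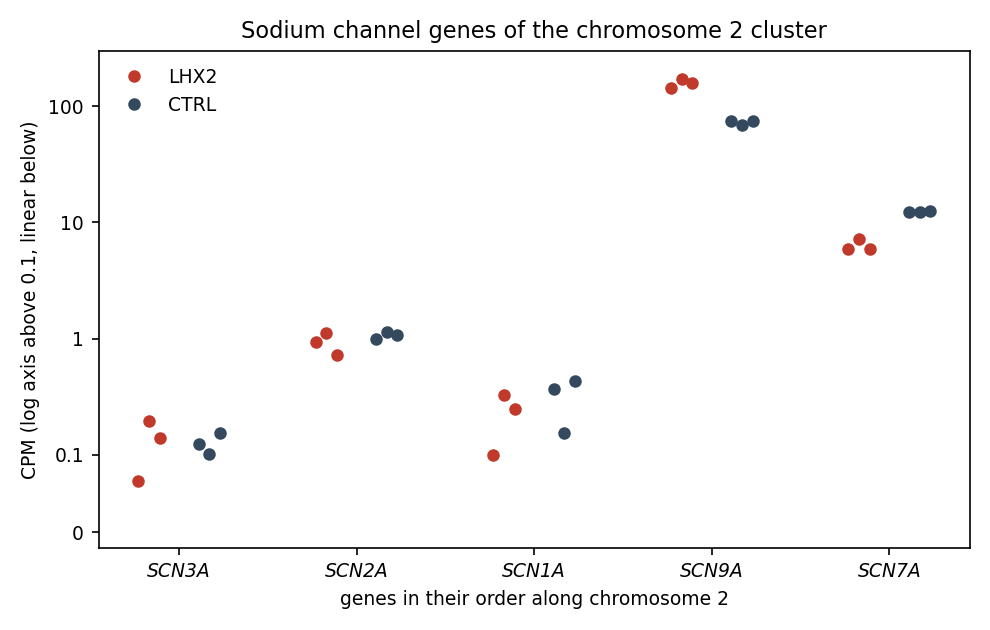
Level of 5 sodium channel genes in their order along chromosome 2, in CPM on a log axis that is linear below 0.1; each point is a library, LHX2 in red to the left of CTRL in dark blue. SCN9A was higher and SCN7A lower in all LHX2 libraries, while the groups overlapped for SCN3A, SCN2A and SCN1A.

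The promoters of SCN9A and SCN7A are printed because the tested factor is a DNA-binding protein and because these neighbours moved apart. Those of SCN8A and KCNJ13 are added as further called members with a homeodomain hexamer there. They were thus chosen by both call and hexamer, so the printed set cannot show whether hexamers go with calls. Each window runs from 250 bases before to 50 bases after a RefSeq gene start, in GRCh38.p14, 5′ to 3′ on the gene's strand. Capitals mark TAATTA or TAATTG, hexamers with the TAAT core that LIM-homeodomain proteins are known to bind, searched on both strands, so that CAATTA is the second of them on the other strand.
SCN9A, chr2:166375895-166376194, minus strand: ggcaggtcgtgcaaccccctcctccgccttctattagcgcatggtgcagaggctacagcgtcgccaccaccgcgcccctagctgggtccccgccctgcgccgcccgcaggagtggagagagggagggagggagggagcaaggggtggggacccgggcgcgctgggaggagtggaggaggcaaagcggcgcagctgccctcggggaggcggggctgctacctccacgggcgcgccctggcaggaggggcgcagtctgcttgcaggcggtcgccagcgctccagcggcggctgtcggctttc
SCN7A, first start, chr2:166494200-166494499, minus strand: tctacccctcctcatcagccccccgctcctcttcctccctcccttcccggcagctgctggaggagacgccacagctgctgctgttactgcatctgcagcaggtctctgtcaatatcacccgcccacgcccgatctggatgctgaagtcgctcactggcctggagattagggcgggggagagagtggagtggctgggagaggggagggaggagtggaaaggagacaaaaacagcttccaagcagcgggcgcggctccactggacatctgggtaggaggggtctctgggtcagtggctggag
SCN7A, downstream start, chr2:166486922-166487221, minus strand: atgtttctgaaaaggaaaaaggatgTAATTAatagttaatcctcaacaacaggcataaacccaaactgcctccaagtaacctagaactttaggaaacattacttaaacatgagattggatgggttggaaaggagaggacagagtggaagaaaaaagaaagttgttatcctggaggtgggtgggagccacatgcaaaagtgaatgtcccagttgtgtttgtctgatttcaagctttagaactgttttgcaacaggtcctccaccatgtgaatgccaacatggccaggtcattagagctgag
SCN8A, chr12:51590983-51591282, plus strand: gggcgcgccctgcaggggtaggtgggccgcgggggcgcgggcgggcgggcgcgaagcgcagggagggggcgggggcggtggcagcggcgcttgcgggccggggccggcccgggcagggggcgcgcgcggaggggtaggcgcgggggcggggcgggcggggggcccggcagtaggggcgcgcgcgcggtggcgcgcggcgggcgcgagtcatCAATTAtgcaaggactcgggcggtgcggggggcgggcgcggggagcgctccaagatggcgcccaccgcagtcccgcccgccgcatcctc
KCNJ13, chr2:232776516-232776815, minus strand: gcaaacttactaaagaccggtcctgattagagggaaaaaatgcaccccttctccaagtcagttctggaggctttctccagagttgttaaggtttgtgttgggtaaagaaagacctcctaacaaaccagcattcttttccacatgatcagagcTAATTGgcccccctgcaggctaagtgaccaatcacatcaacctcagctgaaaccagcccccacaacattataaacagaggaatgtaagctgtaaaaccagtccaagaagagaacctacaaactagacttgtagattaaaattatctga

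The SCN9A window and the upstream SCN7A window held neither hexamer, and the downstream SCN7A window held a TAATTA that begins 225 bases before the start. SCN8A held a CAATTA that begins 39 bases before its start, and KCNJ13 a TAATTG 98 bases before. Either hexamer was in 11.4% of all 35116 promoter windows, TAATTA in 4.84% and TAATTG in 7.38%. Of the 43 tested members 32 had windows, 46 in all, and 7 of the 46 (15.2%) held a hexamer, in 6 genes: SCN7A, SCN8A, KCNJ13, SCN2A, CACNB2 and KCNMB3. The last 3 did not pass the test. The windows of the called genes KCNJ3, KCNE3 and CACNA1D, not printed, held neither. The windows differ in base composition, with 73.3% G and C for SCN9A, 84.0% for SCN8A, 43.0% for KCNJ13, and 41.3% for the SCN7A window that held the hexamer, against 62.7% for its other window. A match describes letters in these windows and is no evidence of binding.

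SCN8A, which encodes a sodium channel alpha subunit of neurons (chromosome 12, 51591233 to 51812864, plus strand), moved little. It had 35.1, 36.4 and 34.9 CPM in LHX2 libraries, against 29.6, 28.5 and 32.1 CPM in CTRL libraries. The groups did not overlap, and the log2 fold change was 0.24 ± 0.058 (SE; 1.18-fold; edgeR adjusted p = 5.5e-03). With the dependence on length and GC content taken out, an alternative chosen after seeing the data, it was 0.09 (edgeR adjusted p = 0.22), and the call was lost. SCN11A, another alpha subunit gene, had 8 to 11 counts in LHX2 and 11 to 13 in CTRL libraries and did not pass. SCN4A and SCN10A, and the beta subunit genes SCN2B, SCN3B and SCN4B, had at most 7 counts in any library.

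Among potassium channel genes, 2 of the inward rectifiers rose. These channels pass potassium inward more readily than outward and hold the membrane near the potassium equilibrium. KCNJ3, a pore subunit of the channels that G proteins open (chromosome 2, 154698695 to 154858354, plus strand), had 12.8, 11.6 and 12.5 CPM in LHX2 libraries and 5.72, 6.61 and 6.65 CPM in CTRL libraries. The groups lay well apart, with a fold of 1.94 and a log2 fold change of 0.95 ± 0.092 (SE; edgeR adjusted p = 1.9e-06). KCNJ3 subunits are known to assemble with those of KCNJ5, KCNJ6 or KCNJ9, and these were at or near the count minimum: KCNJ5 had 7 to 10 counts in LHX2 and 5 to 15 in CTRL libraries, KCNJ6 had 7 to 19 and 7 to 14, and KCNJ9 had no read.

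KCNJ13, an inward rectifier gene known from epithelia and the retina (chromosome 2, 232765802 to 232776565, minus strand), was low, with 21, 17 and 27 counts in LHX2 libraries and 9, 8 and 11 counts in CTRL libraries. The LHX2 counts were all above the CTRL counts, and the log2 fold change was 1.31 ± 0.33 (SE; edgeR adjusted p = 7.0e-03). The ratio of summed counts was 2.56, and its exact binomial 95% interval, for counting error alone, was 1.62 to 4.14. The gene lies inside the span of GIGYF2. With the counting strand not given, reads from any overlapping exons cannot be told apart, and overlap of exons was not checked. GIGYF2 had 3380 to 3984 counts in LHX2 and 3476 to 4600 in CTRL libraries and a log2 fold change of -0.02 (edgeR adjusted p = 0.77). The other tested inward rectifiers, KCNJ6, KCNJ11, KCNJ14 and KCNJ15, had log2 fold changes of 0.10 to 0.47 and did not pass.

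A tandem-pore gene and an accessory gene fell. KCNE3 encodes a small membrane protein that changes the gating of voltage-gated potassium pores, best known with KCNQ1 in epithelia (chromosome 11, 74454841 to 74467549, minus strand). It had 7.16, 6.14 and 6.91 CPM in LHX2 libraries and 10.4, 10.6 and 11.7 CPM in CTRL libraries. The groups did not overlap, and KCNE3 was 1.62-fold lower, a log2 fold change of -0.70 ± 0.094 (SE; edgeR adjusted p = 5.0e-05). KCNQ1 itself had no read in the LHX2 libraries and at most 1 in a CTRL library. KCNK9, which encodes an acid-sensitive leak channel (chromosome 8, 139600838 to 139703123), had 8, 11 and 11 counts in LHX2 and 15, 24 and 23 counts in CTRL libraries. Its log2 fold change was -0.93 ± 0.33 (SE; edgeR adjusted p = 0.043), and the ratio of summed counts was 0.533 (exact binomial interval for counting error 0.333 to 0.837). The KCNK9 call was lost without a filter on low counts, with DESeq2, with a replicate block and without any 1 library but CTRL replicate 1, at adjusted p-values of 0.0615 to 0.15 and log2 fold changes of -1.04 to -0.795.

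The remaining potassium channel genes did not pass. KCNT2, a sodium-activated potassium channel gene, had 8.79, 11.4 and 8.96 CPM in LHX2 libraries and 12.0, 11.7 and 11.3 CPM in CTRL libraries, and LHX2 replicate 2 lay within the CTRL range. Its log2 fold change was -0.27 ± 0.10 (SE; edgeR adjusted p = 0.055), just above the threshold. It passed with RLE scaling (adjusted p = 0.0488), limma-voom (0.0437), the edgeR likelihood ratio test (0.0353), no filter on low counts (0.0292) and the length and GC dependence taken out (0.0186), at -0.29 to -0.27, and at -0.39 without LHX2 replicate 2 (adjusted p = 5.2e-03). KCNN2, a calcium-activated channel gene of small conductance, had 3.46, 3.09 and 2.66 CPM in LHX2 libraries and 3.17, 4.77 and 4.28 CPM in CTRL libraries, with a log2 fold change of -0.42 ± 0.16 (SE; edgeR adjusted p = 0.060). It passed with no filter on low counts (adjusted p = 0.0215), the edgeR likelihood ratio test (0.0363) and the length and GC dependence taken out (0.0340), at -0.46 to -0.42, and at -0.52 without LHX2 replicate 1 (adjusted p = 0.0465) and at -0.57 without CTRL replicate 1 (adjusted p = 0.015).

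KCNMB3 and KCNMB4 encode accessory subunits of the large-conductance calcium-activated channel. KCNMB3 had 8.72, 9.29 and 6.61 CPM in LHX2 libraries and 9.22, 8.91 and 8.59 CPM in CTRL libraries, and KCNMB4 had 7.22, 6.89 and 6.91 CPM in LHX2 and 6.18, 7.20 and 5.73 CPM in CTRL libraries. The groups overlapped for both, with log2 fold changes of -0.13 ± 0.11 and 0.13 ± 0.11 (SE). The gene of their pore, KCNMA1, had 1 to 4 counts in LHX2 and 5 to 7 in CTRL libraries and was not tested. KCNMB3 overlaps PIK3CA, which had 1533 to 1777 counts in LHX2 and 1553 to 1905 in CTRL libraries, with the same limit on strand.

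None of the 9 tested alpha subunit genes of the voltage-gated potassium families passed, out of 40 in the table, with log2 fold changes between -0.98 for KCNC1 and 0.53 for KCND1 and a smallest edgeR adjusted p of 0.14. KCNH8 had 2.70, 4.10 and 3.66 CPM in LHX2 libraries and 3.60, 3.65 and 3.67 CPM in CTRL libraries, which overlapped. KCNC1 had 11, 4 and 4 counts in LHX2 and 18, 14 and 9 in CTRL libraries and passed without LHX2 replicate 1 (-1.69, adjusted p = 0.034), as did KCND1 (0.83, adjusted p = 0.037). The leak channel genes KCNK5, KCNK6 and KCNK13 had log2 fold changes of -0.34, 0.07 and -0.46, and KCNK5 passed at -0.60 (adjusted p = 0.048) without LHX2 replicate 3.

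**Figure D3:**
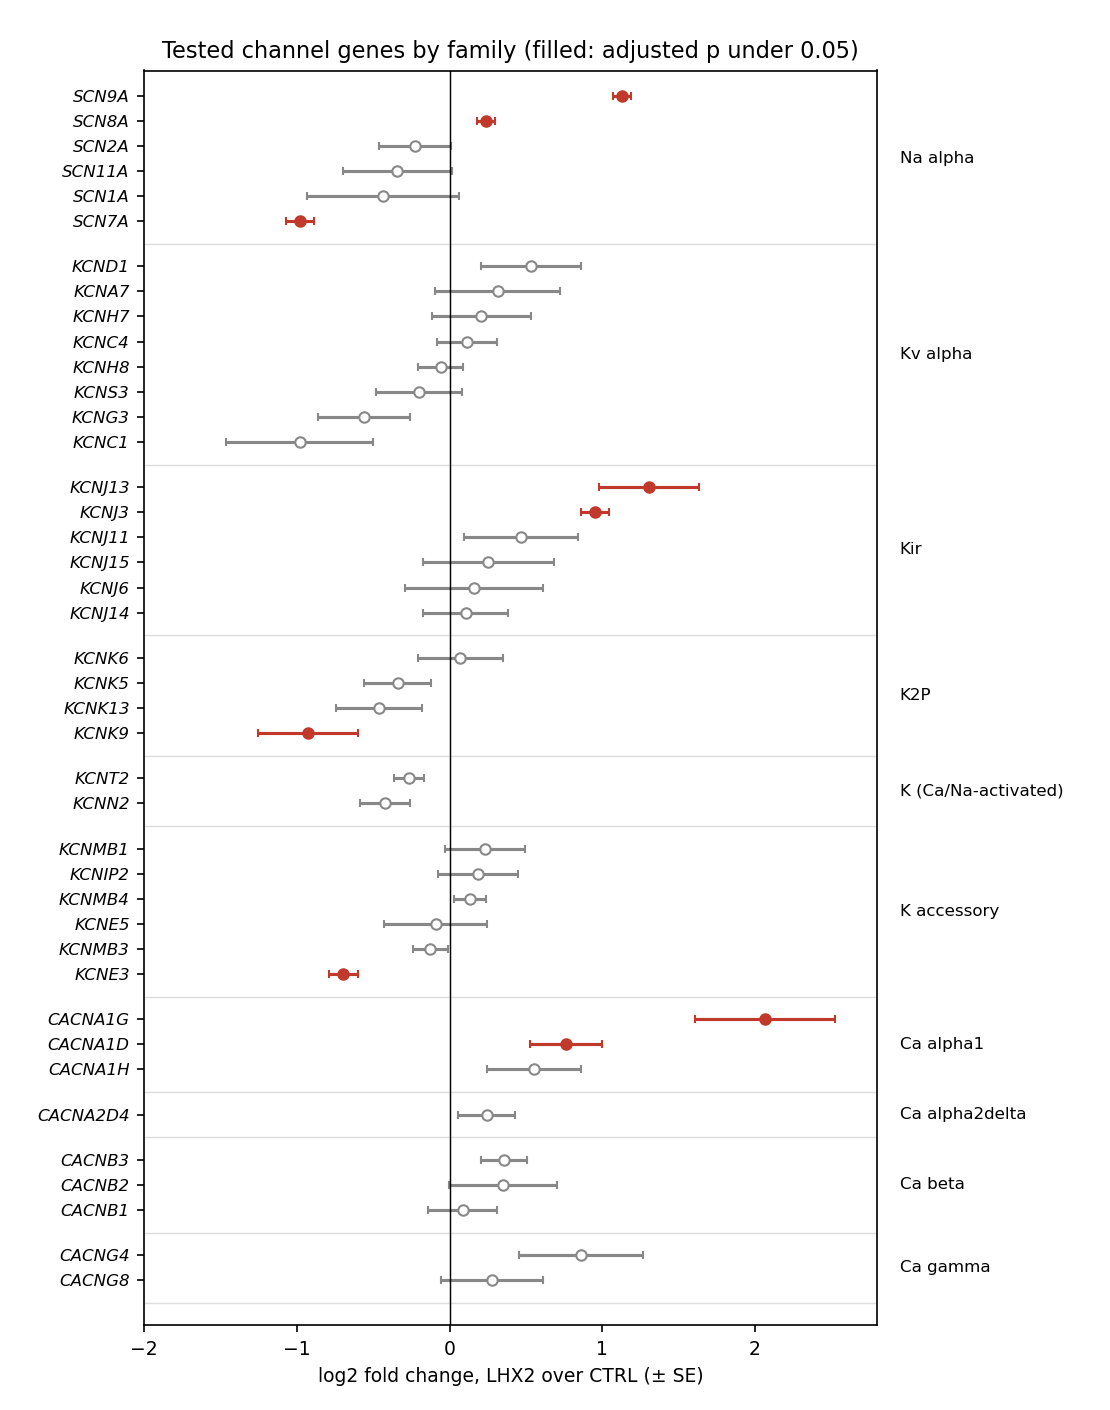
Log2 fold change of LHX2 over CTRL with its SE for the tested channel genes reported here, grouped by family from the sodium channels at the top to the calcium channel gamma subunits at the bottom; filled red points have an adjusted p under 0.05 and open grey points do not. The sodium channel alpha subunits range from -0.98 for SCN7A to 1.13 for SCN9A, and the voltage-gated potassium alpha subunits hold no filled point.

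Of the calcium channel genes, 2 pore subunits rose, both at low levels. CACNA1D encodes the pore of an L-type channel, the class that opens at moderate depolarisation and that dihydropyridines block (chromosome 3, 53494611 to 53813733, plus strand). It had 58, 51 and 88 counts in LHX2 libraries and 54, 36 and 34 in CTRL libraries, or 1.93, 1.67 and 2.44 CPM in LHX2 and 1.66, 0.919 and 1.05 CPM in CTRL libraries. The lowest LHX2 library and the highest CTRL library nearly touched. Its log2 fold change was 0.76 ± 0.23 (SE; edgeR adjusted p = 0.022), and the call was lost without LHX2 replicate 3 (0.59, adjusted p = 0.092), without CTRL replicate 2 (0.58, adjusted p = 0.12) and without CTRL replicate 3 (0.68, adjusted p = 0.062). CACNA1D overlaps the span of CHDH, which had 2589 to 3145 counts in LHX2 and 2964 to 3689 in CTRL libraries and a log2 fold change of -0.11. Reads from any overlapping exons of these genes cannot be told apart by strand here, and overlap of exons was not checked.

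CACNA1G, a T-type pore gene whose channels open at small depolarisations (chromosome 17, 50560715 to 50627474), had 12, 10 and 18 counts in LHX2 libraries and 2, 5 and 3 in CTRL libraries. The gene entered the test only through the LHX2 libraries, the group where it was higher. The ratio of summed counts was 4.41 (exact binomial 95% interval for counting error 2.17 to 9.88), and the log2 fold change was 2.07 ± 0.46 (SE; edgeR adjusted p = 3.0e-03). Of the other T-type genes, CACNA1H had 16 to 27 counts in LHX2 and 12 to 16 in CTRL libraries (log2 fold change 0.56 ± 0.31, SE, adjusted p = 0.19), and CACNA1I had at most 1 count in a library.

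Genes whose symbols mark accessory subunits of calcium channels did not pass, although all 6 tested had values above 0 on the log2 scale. The beta subunits carry the pore to the membrane. CACNB3 had 81, 76 and 105 counts in LHX2 libraries, against 74, 84 and 62 in CTRL libraries. In CPM its groups did not overlap, with 2.70, 2.49 and 2.91 in LHX2 and 2.27, 2.14 and 1.91 in CTRL libraries. Its log2 fold change was 0.36 ± 0.15 (SE; edgeR adjusted p = 0.083). CACNB2 had 0.35 ± 0.35 and CACNB1 0.08 ± 0.23, the last being -0.022 with the length and GC dependence taken out and -0.075 without LHX2 replicate 1. CACNA2D4, an alpha2delta subunit gene, had 0.24 ± 0.19, and the gamma subunit family members CACNG4 and CACNG8 had 0.86 ± 0.41 and 0.28 ± 0.33. CACNA1C, the L-type pore gene of the heart, had at most 2 counts in a library, and the alpha2delta genes CACNA2D1, CACNA2D2 and CACNA2D3 at most 4.

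Levels per transcript length placed SCN9A above every other member in both groups. Divided by the longest annotated transcript of each gene, which need not be the one Huh7 cells use, SCN9A stood at 16.2 CPM per kb in LHX2 and 7.42 CPM per kb in CTRL libraries. Next in LHX2 libraries came SCN8A, KCNJ3, KCNE3 and KCNT2 at 3.07, 2.45, 2.14 and 1.59 CPM per kb, and neighbours in this order did not overlap between genes over the libraries. The order in CTRL libraries was KCNE3, SCN8A, KCNT2 and SCN7A at 3.48, 2.60, 1.92 and 1.67 CPM per kb. SCN7A was at 0.846 CPM per kb in LHX2 libraries, and KCNJ3 at 1.26 CPM per kb in CTRL libraries, where its libraries overlapped those of KCNMB4 and KCNMB3.

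**Figure D4:**
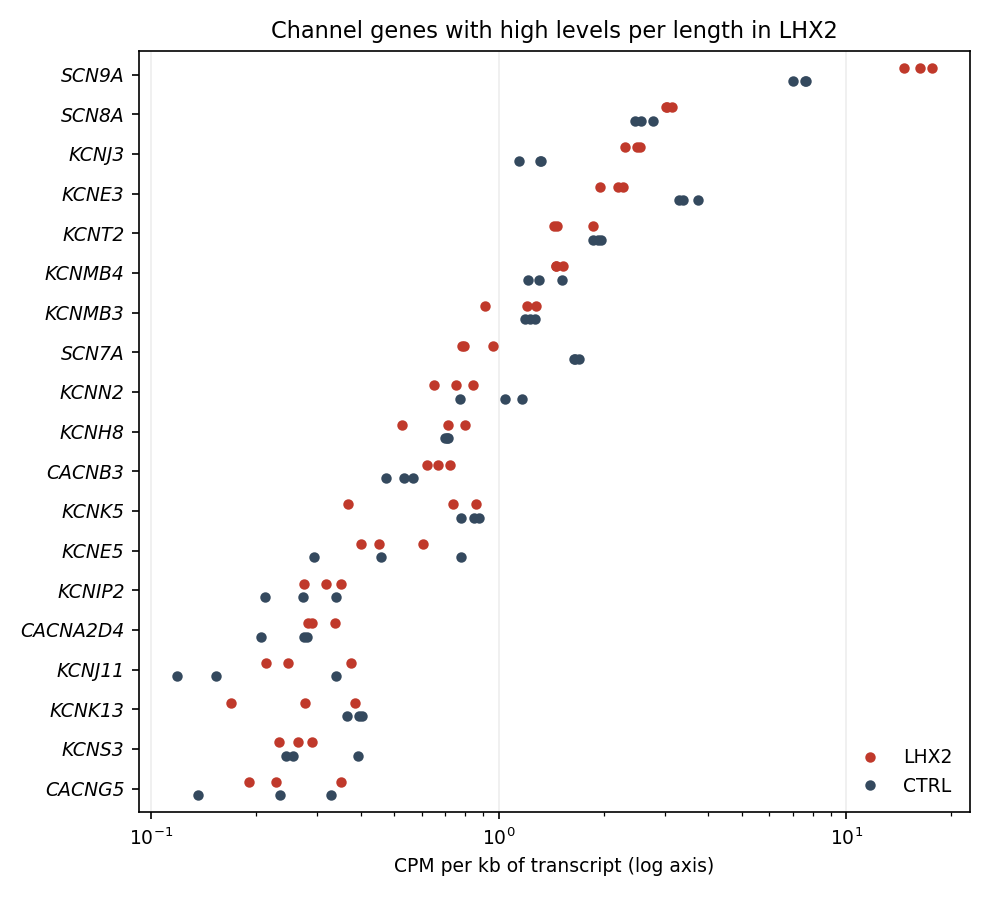
Level per transcript length, in CPM per kb on a log axis, for channel genes reported here that stand high in the LHX2 group by this measure; points are libraries, with LHX2 in red above CTRL in dark blue for each gene. SCN9A lies to the right of all other genes in both groups, and KCNJ3 and SCN7A lie apart between the groups in opposite directions.

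The count minimum split genes with similar counts. Just inside it, with 3 libraries at 10 or more, CACNB4 had 2 to 16 counts in LHX2 and 8 to 12 in CTRL libraries, and CACNG5 had 9 to 14 and 7 to 14. Just outside it, with 2 such libraries, KCNE4 had 3 to 11 and 6 to 13, KCNIP4 had 9 to 11 and 1 to 6, and KCNK3 had 1 to 14 and 7 to 8. KCNIP4 lay higher in all LHX2 libraries in CPM. It was not tested in the main fit, and of the alternatives only the fit without CTRL replicate 3 called it, as higher. CACNB4, CACNG5 and KCNJ5 reached the minimum and were not tested, because the test's own filter sets its minimum in CPM. The highest count of any member below the minimum was 14, for KCNK3.

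Genes that bind or regulate these channels changed in both directions. Of 39 associated genes 21 were tested: 4 rose, 4 fell and 13 did not pass, a called share to be read against 32.5% of all genes. ANK3, whose product ankyrin-G anchors sodium channels at the axon initial segment, had 807, 861 and 909 counts in LHX2 libraries, against 481, 661 and 564 in CTRL libraries (log2 fold change 0.71 ± 0.076, SE; edgeR adjusted p = 5.5e-06). Its relative ANK2 had 481, 491 and 541 counts in LHX2 libraries and 768, 926 and 837 in CTRL libraries (-0.63 ± 0.070, SE; edgeR adjusted p = 7.5e-06). ABCC9, the sulfonylurea receptor subunit of potassium channels that ATP closes, rose by 0.76 ± 0.10 (SE), with 231 to 258 counts in LHX2 and 137 to 177 in CTRL libraries, while its pore partners KCNJ8 and KCNJ11 had 3 to 8 and 18 to 32 counts in LHX2 and 1 to 6 and 13 to 31 in CTRL libraries. FGF11, an intracellular homologue of fibroblast growth factors that belongs to a family of sodium channel modulators, rose by 0.38 on the log2 scale, and CACHD1, a relative of the alpha2delta subunits, fell by 0.39 on the log2 scale. TMEM65 (-0.23) also fell.

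Of 15 tested genes for other cation channels, of 29 in the table, 2 rose and 13 did not pass, against 32.5% of all genes tested that were called in either direction. PIEZO1, a channel that opens on membrane stretch, had 3025, 3266 and 4331 counts in LHX2 libraries and 2645, 3253 and 2453 in CTRL libraries (log2 fold change 0.45 ± 0.059, SE; edgeR adjusted p = 3.5e-05; 0.24 with the length and GC dependence taken out). HCN3, a hyperpolarisation-activated channel gene, rose by 0.41 ± 0.097 (SE). NALCN, the sodium leak channel gene, had no read in any library.

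**Figure D5:**
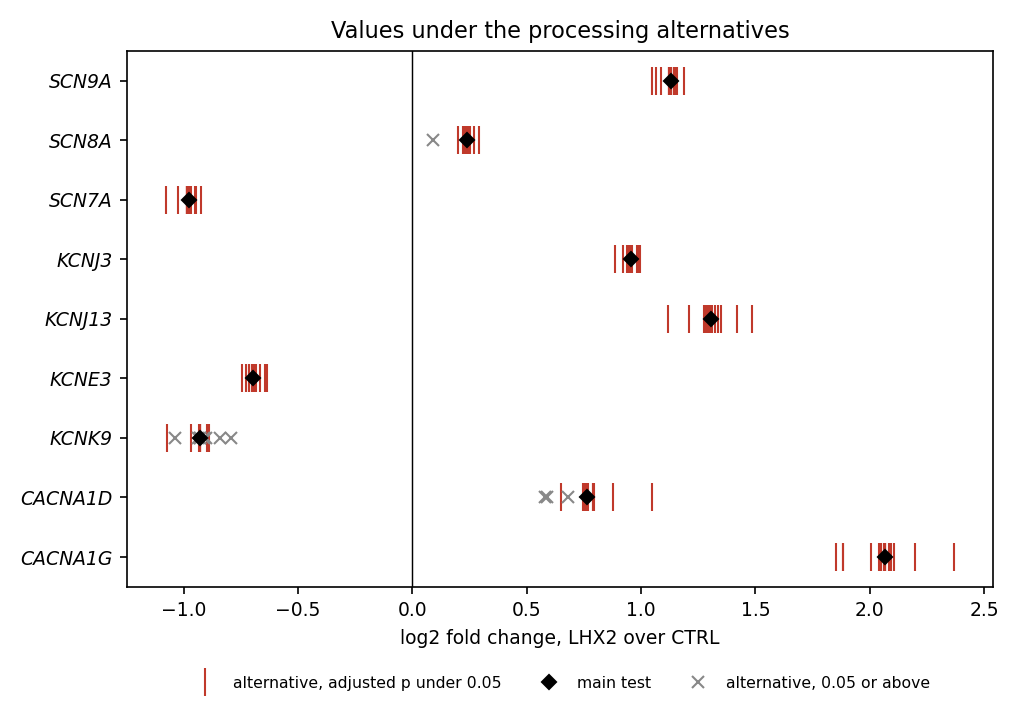
Log2 fold change of LHX2 over CTRL for the 9 called channel genes, as reported (black diamonds) and under each processing alternative (red bars where the adjusted p was under 0.05, grey crosses where it was not). SCN9A, SCN7A, KCNJ3, KCNJ13, KCNE3 and CACNA1G show no grey cross, while SCN8A shows 1, CACNA1D 3 and KCNK9 8.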

How the data were processed

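Per the labels' protocols, libraries were made from total RNA of Huh7 cells with a stranded mRNA kit. Per the submitters' processing notes, the tools were featureCounts 2.0.0, TopHat2 2.1.1, SAMtools 1.9, Bowtie2 2.3.5.1, FastQC and bcl2fastq 2.20, with GRCh38 and hg38 as builds. The sources used here give neither annotation nor strand setting. The authors deposited raw read counts for each gene, not normalized. The table held 28265 genes, and 1 control column with a differently written name was taken as control replicate 1 from the number it ends in.

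The whole table was filtered with edgeR filterByExpr (min.count 10), scaled with TMM factors (0.985 to 1.02) and tested in edgeR by quasi-likelihood with group as the single term, p-values adjusted by the Benjamini-Hochberg method over 14533 genes at 0.05. The test code was run on simulated counts drawn with edgeR's own dispersions and with far fewer changed genes than were called here. That run checks the code and is no evidence for the calls. Standard errors were derived from the F statistic. Exact intervals were at 95%. All 131 members matched RefSeq (GRCh38.p14) by gene ID, and transcript lengths came from GENCODE release 29.

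Members and lists were chosen with earlier results of these data known. Values are given for members with an adjusted p under 0.05, for the 10 with the highest mean CPM, and for partners of these; of the 2 lists of other genes up to 6 each by size of change. Some genes that enter the counts are not reported here by name. TMEM65, KCNC1, KCND1, KCNK5, NALCN and CACNA1C were named after their values were seen. Alternatives were DESeq2, limma-voom, the edgeR likelihood ratio test, other low-count filters, each library dropped in turn, a replicate block, the fit without LHX2, and scaling by RLE, by upper quartile or by totals. A loess correction (span 0.3) for GC content and transcript length was chosen after seeing the data. DESeq2 1.42.0, limma 3.58.1 and edgeR 4.0.16 ran in R 4.3.3, and matplotlib 3.10.9, scipy 1.17.1, numpy 2.4.6 and pandas 2.3.3 in Python 3.11.15.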

Additional observations from a re-analysis of the deposited data

How the results depend on the processing

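The calls of SCN9A (log2 fold change 1.05 to 1.19), SCN7A (-1.08 to -0.93), KCNJ3 (0.89 to 0.995), KCNE3 (-0.74 to -0.63) and KCNJ13 (1.12 to 1.49) kept their direction and an adjusted p under 0.05 in every alternative that tested them. The CACNA1G call did too (1.85 to 2.37), but this gene passed the main filter only through the LHX2 libraries. The alternatives use the same counts and are no separate evidence for it. KCNJ13, CACNA1G and KCNK9 had too few counts for the filter of 1 CPM in 3 libraries, which tested 18 members and called 4 higher and 2 lower. The count of members called lower, 3 as reported, was 5 without a filter on low counts (KCNH4, KCNN2 and KCNT2 gained, KCNK9 lost), 5 with the edgeR likelihood ratio test and 5 with the length and GC dependence taken out, the last 2 fits each adding KCNN2 and KCNT2. The cause was not tested. With single libraries left out, 5 to 7 members were called higher and 2 to 4 lower, and 4 to 5 associated genes were higher and 4 to 5 lower. Replicate numbers in the labels showed no sign of pairing the libraries. The deviations of same-numbered libraries correlated at -0.056, -0.074 and -0.195, and no LHX2 library correlated best with the control of its own number. These are deviations from means of 3 libraries, which constrain each other, so the correlations cannot show that the libraries were not paired. With the number as a replicate block, 6 members were higher and 2 lower, KCNK9 (-0.93, adjusted p = 0.0747) no longer passing, and 3768 genes were called in all.

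Some members that did not pass changed sign near 0: with the length and GC dependence taken out KCNC4 was at -0.14, CACNB1 was at -0.022, KCNK6 was at -0.0064, KCNJ6 was at -0.038. With single libraries left out, log2 fold changes spanned -0.032 to 0.21 for KCNC4, -0.32 to 0.071 for KCNS3, -0.18 to 0.085 for KCNH8, -0.23 to 0.016 for KCNMB3, -0.36 to 0.38 for KCNE5, -0.075 to 0.18 for CACNB1, -0.13 to 0.27 for KCNK6, -0.47 to 0.49 for KCNJ6 and -0.085 to 0.57 for KCNJ15. Depth leaves low members imprecise: counting error alone gave the CACNA1G ratio an interval of 2.17 to 9.88.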
